A study of Mus musculus with 5 samples.

Results

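The DNA methylation and Polycomb genes described here are 7 genes of the 14960 named on the array: Dnmt1, Dnmt3a, Dnmt3b, Dnmt3l, Ezh2, Eed and Suz12. Every probe whose name, synonym or accession in the scanner files is one of these genes was taken, which gave 13 of 28845 probes. The probes were taken by name alone, while the genes were chosen with earlier results of these data known. Mouse stem cells were differentiated as embryoid bodies, aggregates that model early heart development in culture, and RNA came from cells positive for a lineage marker. Rex1-positive undifferentiated stem cells came from day 0, Bra-positive early mesodermal cells and cardiac mesodermal cells positive for Flk1 from day 4.5, and Nkx2.5-positive progenitors of the cardiac lineage from day 7.5. The cell line, strain, genotype and isolation method were not given in the sources used here. Pairs of populations were hybridised once each on 5 arrays with 2 dyes: Bra, Flk1 and Nkx2.5 cells each against Rex1 cells, and Nkx2.5 cells against Bra and against Flk1 cells. The population named first carried Cy5; the dyes were not exchanged. The labels name no separate cultures of a population, so the repeats of a population across arrays measure hybridisation and not the spread between cultures, and no test between populations was made.

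DNA methyltransferases add methyl groups to cytosine, mainly in CG dinucleotides, a mark associated with silenced genes and repeats. Dnmt1 copies existing methylation after replication, Dnmt3a and Dnmt3b place new methylation, and Dnmt3l, which is not catalytic, stimulates both of these enzymes and is known for its role in germ cells and its expression in embryonic stem cells. Ezh2, Eed and Suz12 form the core of Polycomb repressive complex PRC2, which methylates histone H3 at silent developmental genes.

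Each comparison has 2 readings. The first is the log2 ratio on the array of the pair, and the second comes from the other arrays that link the same populations. Flk1 over Bra, for which no array was hybridised, was read through Rex1 and again through Nkx2.5. A gene passed where both readings reached 1 in size with the same sign, a 2-fold ratio, and the brighter population was above background. Around each triangle of arrays the ratios should close to 0, and over 24882 genes and transcripts the SD of this gap was 0.39 in the triangle with Bra and 0.44 in that with Flk1. This corresponds to an error of 0.24 for 1 array if the errors of the arrays are independent. It covers hybridisation but not the spread between cultures. A preference of a probe for 1 dye, shared by all arrays, is covered only in part. All 13 probes were above background in all 10 channels.

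The windows around the annotated starts of Dnmt3b and Dnmt3l, the members that passed, are shown as the sequences of the genes the results turn on. Each is 300 bases long, 250 before the start and 50 after it, from RefSeq on build GRCm38.p6, with CG in capitals. The Dnmt3b window lies on the plus strand at chr2:153649199-153649498. Dnmt3l has 3 annotated starts, on the plus strand at chr10:78042037-78042336, chr10:78049592-78049891 and chr10:78055085-78055384, and the array does not tell them apart.
Dnmt3b: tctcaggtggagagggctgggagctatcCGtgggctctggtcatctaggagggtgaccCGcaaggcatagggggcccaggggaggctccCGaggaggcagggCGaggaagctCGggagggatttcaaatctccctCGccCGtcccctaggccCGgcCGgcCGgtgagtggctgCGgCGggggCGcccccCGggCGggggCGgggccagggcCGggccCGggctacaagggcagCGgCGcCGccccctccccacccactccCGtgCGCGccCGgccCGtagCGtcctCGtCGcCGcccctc
Dnmt3l, start 1: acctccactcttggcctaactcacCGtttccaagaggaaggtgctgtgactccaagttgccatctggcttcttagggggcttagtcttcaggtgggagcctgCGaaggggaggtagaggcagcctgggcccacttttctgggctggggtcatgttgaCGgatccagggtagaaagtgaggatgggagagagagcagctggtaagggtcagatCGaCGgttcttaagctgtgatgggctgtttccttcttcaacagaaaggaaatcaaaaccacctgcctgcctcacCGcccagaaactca
Dnmt3l, start 2: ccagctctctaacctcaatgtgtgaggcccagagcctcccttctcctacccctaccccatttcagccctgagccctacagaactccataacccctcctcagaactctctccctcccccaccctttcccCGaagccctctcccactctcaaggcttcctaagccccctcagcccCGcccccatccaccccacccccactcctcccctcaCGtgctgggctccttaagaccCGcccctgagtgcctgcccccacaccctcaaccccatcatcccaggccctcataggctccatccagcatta
Dnmt3l, start 3: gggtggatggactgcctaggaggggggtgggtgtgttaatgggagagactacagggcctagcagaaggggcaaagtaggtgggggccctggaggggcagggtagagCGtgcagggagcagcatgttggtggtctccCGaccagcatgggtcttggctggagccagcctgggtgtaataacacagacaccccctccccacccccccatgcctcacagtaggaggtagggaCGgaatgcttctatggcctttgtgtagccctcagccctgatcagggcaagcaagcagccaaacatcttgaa

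The Dnmt3b window holds 30 CG dinucleotides, a number reached by 11.7% of all 32851 windows of 27025 genes. The 3 Dnmt3l windows hold 6, 4 and 3, against a median of 7, and 94.6% of all windows hold at least 1. Among the other members Suz12 holds 41, Ezh2 31 and Eed 17, while the 3 windows of Dnmt3a hold 46, 47 and 18 and those of Dnmt1 hold 2, 12 and 33. All 3 Dnmt3l windows thus lay below the median, and among the other members only the Dnmt1 window with 2 did. The counts read the same on both strands, since CG is its own reverse complement, and they describe sequence only, as methylation was not measured.

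Of the 7 genes, 2 passed in some comparison, both in cardiac progenitors and both lower there. Dnmt3l was lower in Nkx2.5 cells than in Rex1 cells, by 2.34-fold on the direct array and 3.61-fold on the other arrays, beside 0.726% of all genes and transcripts that passed as lower. Its direct ratios in Bra and Flk1 over Rex1, -1.43 and -1.22, also reached 1 in size, but the second readings did not. Dnmt3b was lower in Nkx2.5 cells than in Flk1 cells, by 2.06-fold and 3.02-fold, beside 0.0868% that passed as lower. Over all probes of Dnmt1 and Ezh2 the direct ratio of greatest size was 0.35, of Ezh2 in Flk1 over Rex1. Eed was below Rex1 by about the same ratio in all 3 differentiated populations without passing, and Dnmt3a was lowest in Nkx2.5 cells without passing.

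**Figure D1:**
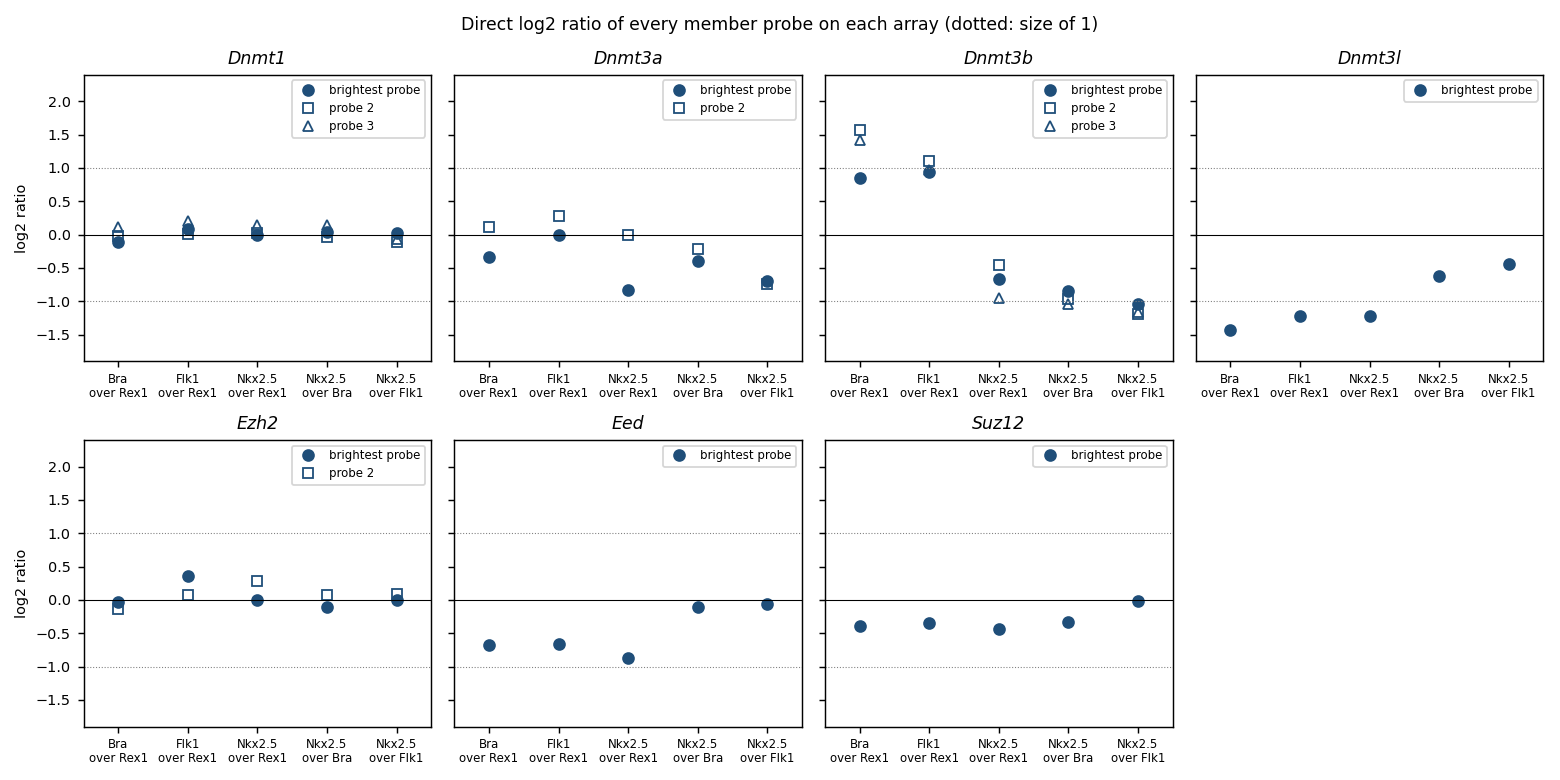
Direct log2 ratio (y axis) of every probe of the 7 genes on each of the 5 arrays (x axis), where each point is 1 probe on 1 array and dotted lines mark a size of 1. The 3 Dnmt3b probes lie above 0 in Bra and Flk1 over Rex1 and below 0 on the arrays with Nkx2.5 cells, while Dnmt3l lies below 0 on all 5.

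Levels of Dnmt3b were highest at the mesodermal stage. Its brightest probe, AGmmB081101, had log2 levels of 13.09, 12.77 and 12.83 in Rex1 cells, 13.93 and 13.73 in Bra cells, 13.69 and 13.71 in Flk1 cells, and 12.17, 12.88 and 12.65 in Nkx2.5 cells. The 4 mesodermal values lay above all 6 values of the other populations, and the Rex1 and Nkx2.5 values overlapped. In bulk RNA of this kind, fewer cells that express a gene and less of its RNA per cell cannot be told apart.

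Relative to Rex1 cells, the direct Dnmt3b ratio was 0.85 in Bra cells, with a second reading of 0.19. In Flk1 cells the direct ratio was 0.93 and the second reading 0.39. Both differences were positive along both routes, but the routes differed by more than the SD of the gaps, and neither passed. Fitted over all 5 arrays by least squares, Dnmt3b was at 0.67 in Bra over Rex1 and 0.81 in Flk1 over Rex1.

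The other Dnmt3b probes, which the array annotation assigns to isoforms, gave a larger direct ratio in Bra over Rex1. Probe AGmmB090717 read 1.56 and 0.51 there, and 1.11 and 0.73 in Flk1 over Rex1. Probe AGmmB121316 read 1.42 and 0.08 in Bra over Rex1, and 0.97 and 0.21 in Flk1 over Rex1. All 3 probes were therefore positive along both routes in both mesodermal populations, and none passed. The 3 probes share a gene and the same extracts and are not replicates.

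The Dnmt3b difference that passed was between day 7.5 and day 4.5 cells. In Nkx2.5 over Flk1 the brightest probe read -1.05 and -1.59, and it ranked 18 from the bottom of 24182 genes and transcripts by the smaller of its readings. Probe AGmmB090717 read -1.19 and -1.56 in Nkx2.5 over Flk1. Probe AGmmB121316 read -1.16 and -1.93 there. All 3 probes passed in this comparison. The direct ratio lay close to the threshold: with plain subtracted signals it was -0.93, and without background subtraction -0.66, and the call was lost under both.

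In Nkx2.5 over Bra the brightest Dnmt3b probe read -0.85 and -1.51 and missed the threshold on the direct array, with a least-squares value of -1.03. It ranked 35 from the bottom of 24123. Probe AGmmB090717 read -0.96 and -2.02 and also missed it. Probe AGmmB121316 passed, with -1.04 and -2.38. The mesodermal populations themselves were close, with readings of 0.09 and 0.19 in Flk1 over Bra for the brightest probe.

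**Figure D2:**
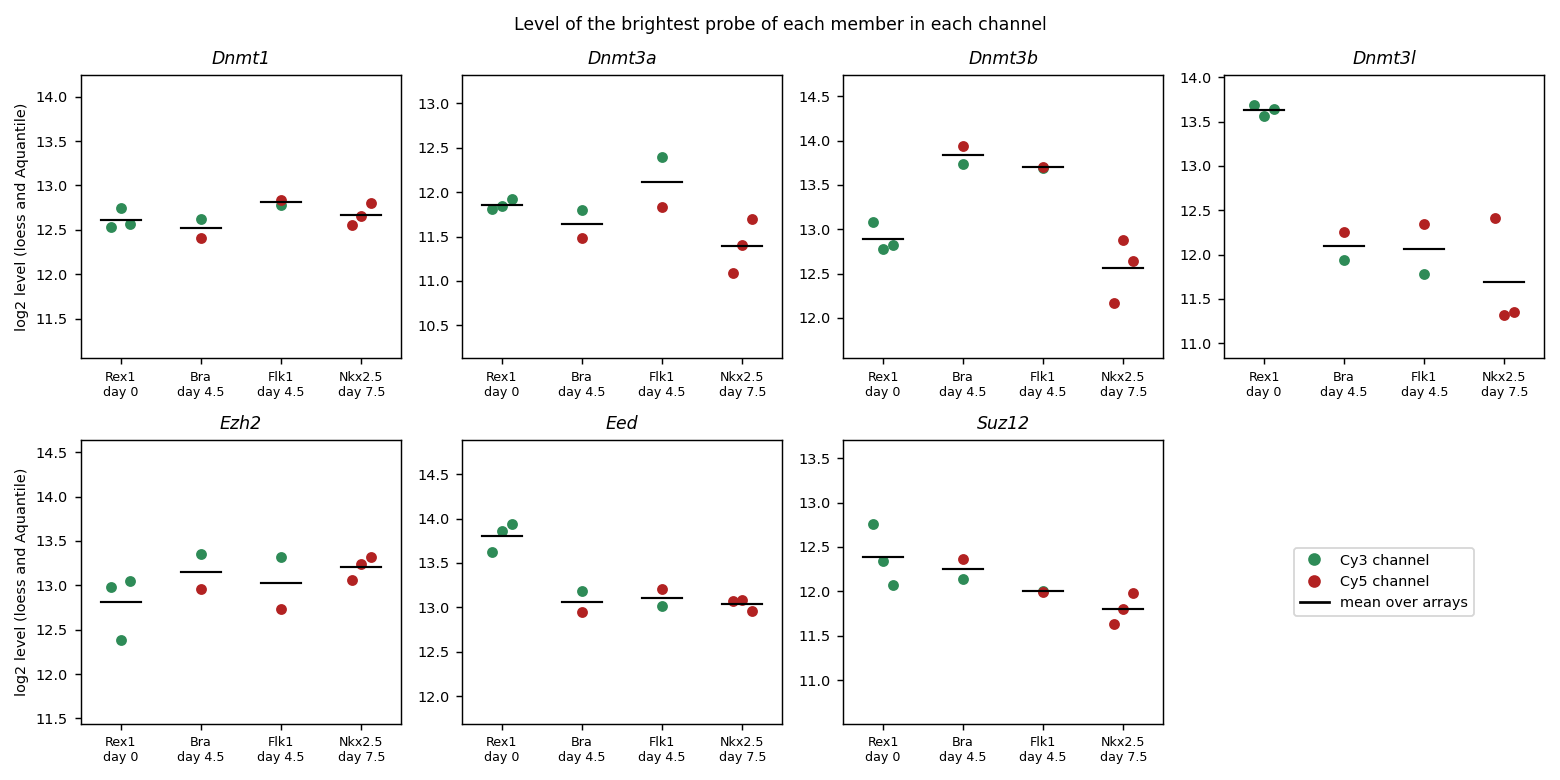
Log2 level (y axis, channels after loess and Aquantile normalisation) of the brightest probe of each gene in the 4 populations (x axis), 1 point per channel in Cy3 or Cy5, with a bar at the mean. Dnmt3b is highest in the Bra and Flk1 cells, Dnmt3l and Eed are highest in the Rex1 cells, and Dnmt1 changes little.

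Whether Nkx2.5 cells held less Dnmt3b than Rex1 cells was not settled by these arrays. The brightest probe gave -0.66 on the direct array, -0.01 through Bra and -0.11 through Flk1. Probe AGmmB090717 gave -0.46, 0.60 and -0.08 by the same routes, and probe AGmmB121316 gave -0.96, 0.39 and -0.19. The sign changed with the route for AGmmB090717 and AGmmB121316, and the size for all 3. The gaps behind this were 0.65, 1.05 and 1.34 through Bra for the 3 probes in that order, and 9.81%, 1.69% and 0.43% of genes had larger ones. Through Flk1 the gaps were 0.55, 0.38 and 0.76. A preference of a probe for 1 dye would enter both gaps with the same sign, and its part in the Dnmt3b ratios was not tested.

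Dnmt3l was highest in undifferentiated cells. Its only probe, AGmmA181404, had log2 levels of 13.69, 13.56 and 13.64 in Rex1 cells, 12.25 and 11.94 in Bra cells, 12.34 and 11.79 in Flk1 cells, and 12.42, 11.32 and 11.35 in Nkx2.5 cells. The Rex1 values lay more than 1 log2 unit above every other value, and the 3 differentiated populations overlapped.

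In Nkx2.5 over Rex1, Dnmt3l read -1.22 on the direct array, with -2.05 through Bra and -1.65 through Flk1, and passed. It ranked 80 from the bottom of 24098 genes and transcripts, with a least-squares value of -1.54, a 2.90-fold difference. The call was lost without background subtraction, where the direct ratio was -0.65. In Bra over Rex1 it read -1.43 and -0.61, and in Flk1 over Rex1 -1.22 and -0.79, so the direct ratios reached 1 in size and the second readings did not. The fits over all arrays gave -1.18 for Bra and -1.16 for Flk1 over Rex1.

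Between the differentiated populations no Dnmt3l difference exceeded the error of 1 array with the same sign along both routes. Nkx2.5 over Bra gave -0.62 and 0.21, and Nkx2.5 over Flk1 gave -0.44 and -0.01. Flk1 over Bra gave 0.22 and -0.18. The triangle gap of Dnmt3l was -0.83 through Bra, exceeded by 4.84% of genes, and -0.43 through Flk1, so both gaps were negative. A preference of its probe for 1 dye would enter both readings of Nkx2.5 over Rex1, where Dnmt3l passed. It would cancel in the second readings of Bra and Flk1 over Rex1, which stayed below 1 in size. The part of such a preference in the Dnmt3l ratios was not tested.

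Dnmt3a, the partner of Dnmt3b in new methylation, was measured by 2 probes that differed. The brighter one, AGmmB240118, had log2 levels of 11.81, 11.84 and 11.92 in Rex1 cells, 11.48 and 11.80 in Bra cells, 11.83 and 12.39 in Flk1 cells, and 11.09, 11.40 and 11.70 in Nkx2.5 cells. It read -0.83 and -0.71 in Nkx2.5 over Rex1 and -0.69 and -0.82 in Nkx2.5 over Flk1. These readings exceeded the error of an array and stayed below the threshold. Without background subtraction they shrank to -0.16 and -0.18 in Nkx2.5 over Rex1, inside the 1-array error, and to -0.28 and -0.20 in Nkx2.5 over Flk1. The second probe, AGmmB110904, gave -0.00 and -0.28 in Nkx2.5 over Rex1. Its signals in Rex1 cells were 1.26 to 1.99 times the limit for being above background. Those of the brighter probe were 2.23 to 2.98 times this limit. In Nkx2.5 over Flk1 the second probe gave -0.75 and -0.28, so the direct ratios of the probes were close there and their second readings differed in size.

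Dnmt1, the maintenance enzyme, was nearly level. Its brightest probe read -0.12, 0.09, -0.01, 0.04 and 0.02 on the arrays of Bra, Flk1 and Nkx2.5 over Rex1 and of Nkx2.5 over Bra and Flk1. Its other probes ranged between -0.11 and 0.20, and all direct ratios of Dnmt1 lay within 1 array error of 0. Among its cofactors, Uhrf1, which brings Dnmt1 to replicated DNA, read 0.13 and 0.24 in Nkx2.5 over Rex1.

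None of the 3 PRC2 core genes passed in any comparison. Ezh2, the catalytic subunit, read -0.03, 0.35, 0.00, -0.11 and 0.00 by its brightest probe in the same array order. Its second probe read -0.14, 0.07, 0.28, 0.07 and 0.08. The value of 0.35 in Flk1 over Rex1 had a second reading of 0.00 and was -0.05 without background subtraction.

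Eed, the subunit that binds the methylated histone, had log2 levels of 13.62, 13.86 and 13.94 in Rex1 cells, 12.95 and 13.18 in Bra cells, 13.20 and 13.02 in Flk1 cells, and 13.07, 13.08 and 12.96 in Nkx2.5 cells. All Rex1 values lay above all others, and the other populations overlapped. Its readings were -0.67 and -0.76 in Bra over Rex1, -0.66 and -0.81 in Flk1 over Rex1, and -0.87 and -0.75 in Nkx2.5 over Rex1. Eed was thus 1.58-fold to 1.82-fold lower, short of the threshold but closely repeated between routes, with a residual SD of 0.06 in the fit over all arrays. Without background subtraction the direct ratios were -0.34, -0.39 and -0.50. Nkx2.5 over Bra and over Flk1 lay at -0.10 and -0.06 on the direct arrays.

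Suz12, a subunit required for the stability of PRC2, is listed on the array under an older name. Its direct ratios were -0.39 in Bra, -0.35 in Flk1 and -0.44 in Nkx2.5 over Rex1, with second readings of -0.11, -0.42 and -0.55. All were negative. Its log2 levels were 12.76, 12.34 and 12.07 in Rex1 cells, 12.36 and 12.13 in Bra cells, 11.99 and 12.01 in Flk1 cells, and 11.63, 11.80 and 11.98 in Nkx2.5 cells. The Flk1 and Nkx2.5 values lay below every Rex1 value, and the Bra and Rex1 values overlapped. Without background subtraction the direct ratios were -0.18, -0.07 and -0.15.

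**Figure D3:**
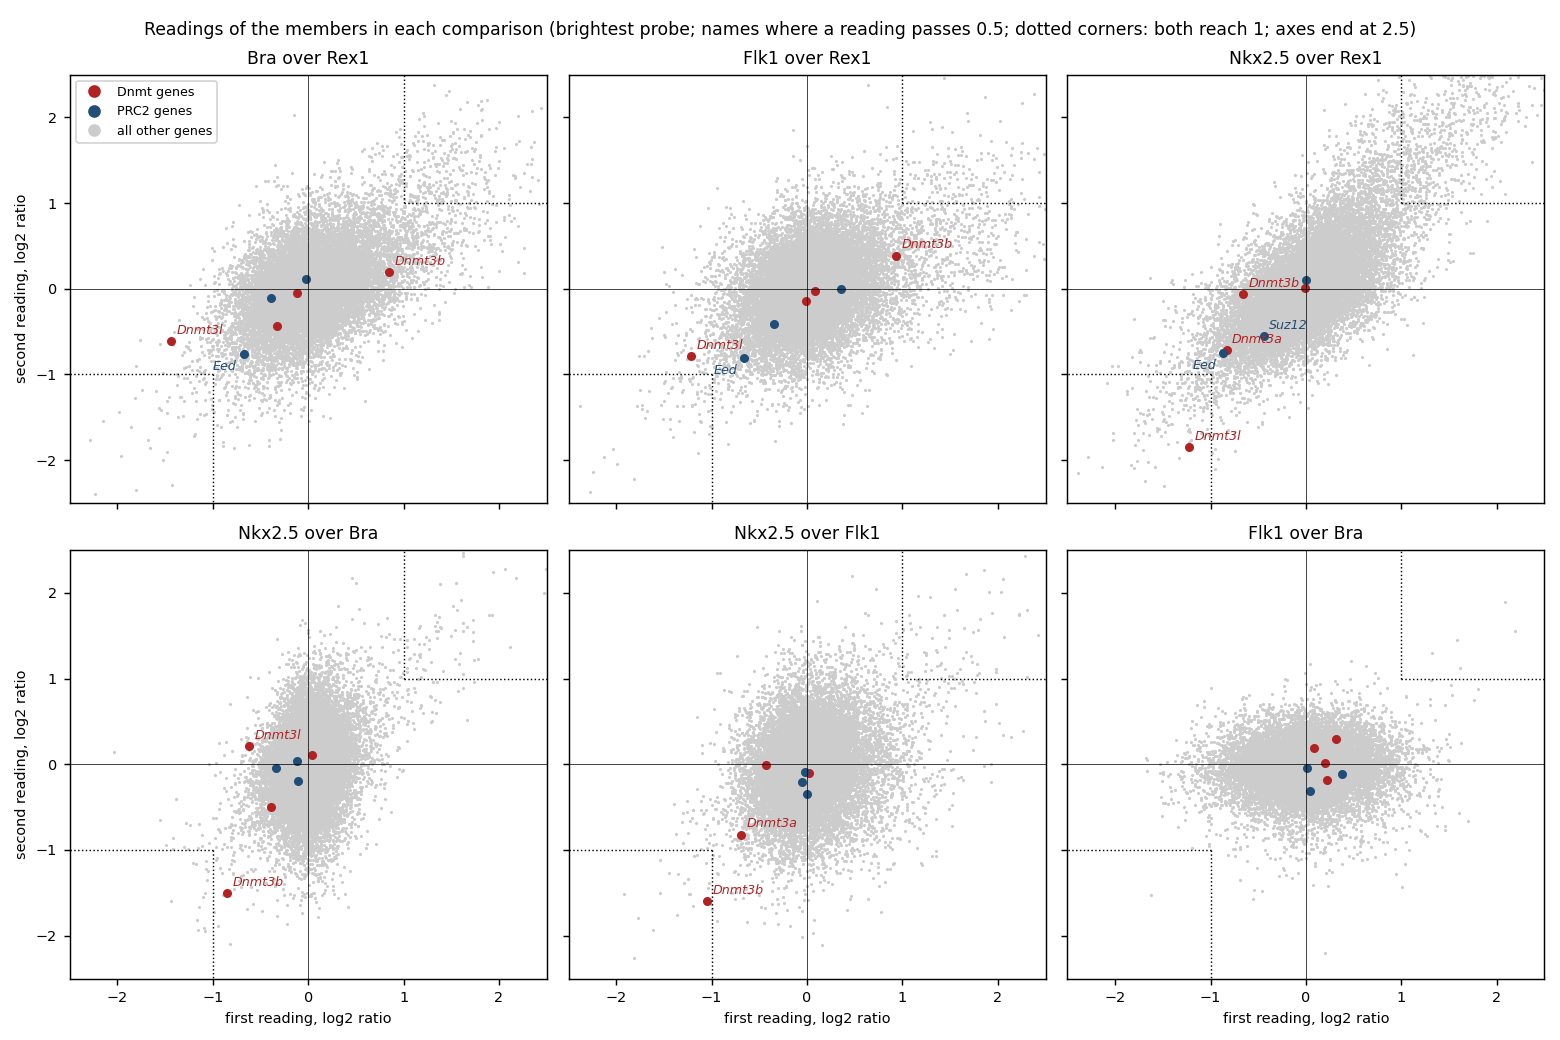
First reading (x axis) against second reading (y axis), in log2 ratio, of every gene and transcript in the 6 comparisons, with the Dnmt genes in red, the PRC2 genes in blue and all others in grey. Dnmt3l lies in the lower dotted corner in Nkx2.5 over Rex1, and Dnmt3b lies there in Nkx2.5 over Flk1.

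Counted by comparison, 0 of 7 genes passed in Bra over Rex1, where 1.22% of all genes and transcripts passed as higher and 0.233% as lower. In Flk1 over Rex1 the count was 0 of 7, beside 0.721% higher and 0.278% lower. In Nkx2.5 over Rex1 it was 0 higher and 1 lower, Dnmt3l, beside 2.5% and 0.726%. In Nkx2.5 over Bra it was 0 of 7, beside 0.286% higher and 0.0622% lower. In Nkx2.5 over Flk1 it was 0 higher and 1 lower, Dnmt3b, beside 0.31% and 0.0868%. In Flk1 over Bra it was 0 of 7, beside 0.0209% higher and 0.00418% lower. The median direct ratio of the 7 genes was -0.66 in Nkx2.5 over Rex1, the value of Dnmt3b, whose second reading was -0.06. The median second reading was -0.55, the value of Suz12. In Nkx2.5 over Flk1 these medians were -0.06 and -0.21. Over all genes and transcripts the median direct ratio was 0.01 in each. The first and second medians of the 7 genes were -0.33 and -0.11 in Bra over Rex1 and -0.01 and -0.14 in Flk1 over Rex1. They were -0.33 and -0.05 in Nkx2.5 over Bra and 0.20 and -0.05 in Flk1 over Bra.

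With the size lowered to 0.5, more members passed, and all as lower. In Nkx2.5 over Rex1 these were Dnmt3a, Dnmt3l and Eed, beside 4.42% of all genes and transcripts. In Bra over Rex1 and Flk1 over Rex1 they were Dnmt3l and Eed, beside 2.12% and 2.1%. In Nkx2.5 over Flk1 they were Dnmt3a and Dnmt3b, beside 1.09%, and in Nkx2.5 over Bra Dnmt3b alone, beside 0.709%. In Flk1 over Bra none did, beside 0.406%. No member passed as higher at this size in any comparison. Over all genes and transcripts the share that did was 4.47% in Bra over Rex1, 3.54% in Flk1 over Rex1, 7.33% in Nkx2.5 over Rex1, 1.09% in Nkx2.5 over Bra, 1.52% in Nkx2.5 over Flk1 and 0.301% in Flk1 over Bra.

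The other genes of these pathways were followed in 7 lists, with 59 of 74 listed genes on the array. Of these 59, 2 passed in some comparison. Mtf2, which helps to bring PRC2 to CG-rich DNA, was lower in Nkx2.5 over Rex1, with readings of -1.17 and -1.35. It was the only one of 9 further PRC2 subunits to pass there, and their median was 0.06. Scmh1, of the PRC1 complex that acts beside PRC2, was higher than Rex1 with readings of 1.93 and 1.27 in Flk1 cells and 1.80 and 1.69 in Nkx2.5 cells. Scmh1 was not above background in Rex1 cells on any array, so only bounds can be given, of at least 1.21-fold and at least 1.46-fold higher, taking the lowest signal above background as the Rex1 level. These bounds fall short of 2-fold, so the size that the Scmh1 call requires was not measured.

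Among the other 15 PRC1 genes on the array none passed, and the median of all 16 was -0.13 in Nkx2.5 over Rex1. Their lowest value above background there was Cbx8 at -1.001, with a second reading of -0.47, and the highest was Pcgf5 at 0.67 and 0.47. The highest PRC2 value was Rbbp7, a histone-binding subunit, at 0.46 and 0.37. Of the listed demethylases that reverse the PRC2 mark, only Kdm6a was on the array, and it read 0.09 and -0.12.

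Of all genes and transcripts, at most 2.5% passed as higher and 0.726% as lower in a comparison. Counts of 0 in lists this short therefore tell little. On the DNA methylation side 0 of 10 genes of maintenance and targeting passed in any comparison, with a median of -0.29 in Nkx2.5 over Rex1. The lowest of them was Cdca7, which activates the remodelling enzyme encoded by Hells, at -1.06 and -0.90. The highest was Trdmt1, a tRNA methyltransferase related to the Dnmt enzymes, at 0.22 and -0.81. Of 6 demethylation genes 0 passed, and they ran from Gadd45a at -0.64 and -0.42 to Gadd45b at 0.14 and 0.06. Of 7 methyl-CpG readers 0 passed, and they ran from Mbd4, a repair glycosylase, at -0.87 and -1.08 to Zbtb4 at 0.33 and -0.02. Of 10 germline genes known to be silenced by DNA methylation 0 passed, from Dazl at -0.90 and -0.75 to Asz1 at 0.46 and -0.18. Asz1 was above background on 2 of 3 Nkx2.5 arrays and 1 of 3 Rex1 arrays. These counts rest on the brightest probe of each gene, and of 19 dimmer probes 2 passed, of Ezh1 and of the meiotic gene Hormad1. The share of all probes that passed was not counted. Both probes were not above background on 1 side of the comparisons they passed, so the size of their differences was not measured. The Hormad1 probe was lower, with -1.50 and -1.41 in Bra over Rex1, -1.35 and -1.36 in Flk1 over Rex1, and -1.66 and -1.70 in Nkx2.5 over Rex1. It was above background on all 3 Rex1 arrays and on none of the other populations' arrays, while the brightest Hormad1 probe read -0.23, -0.30 and -0.10 on the same direct arrays.

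**Figure D4:**
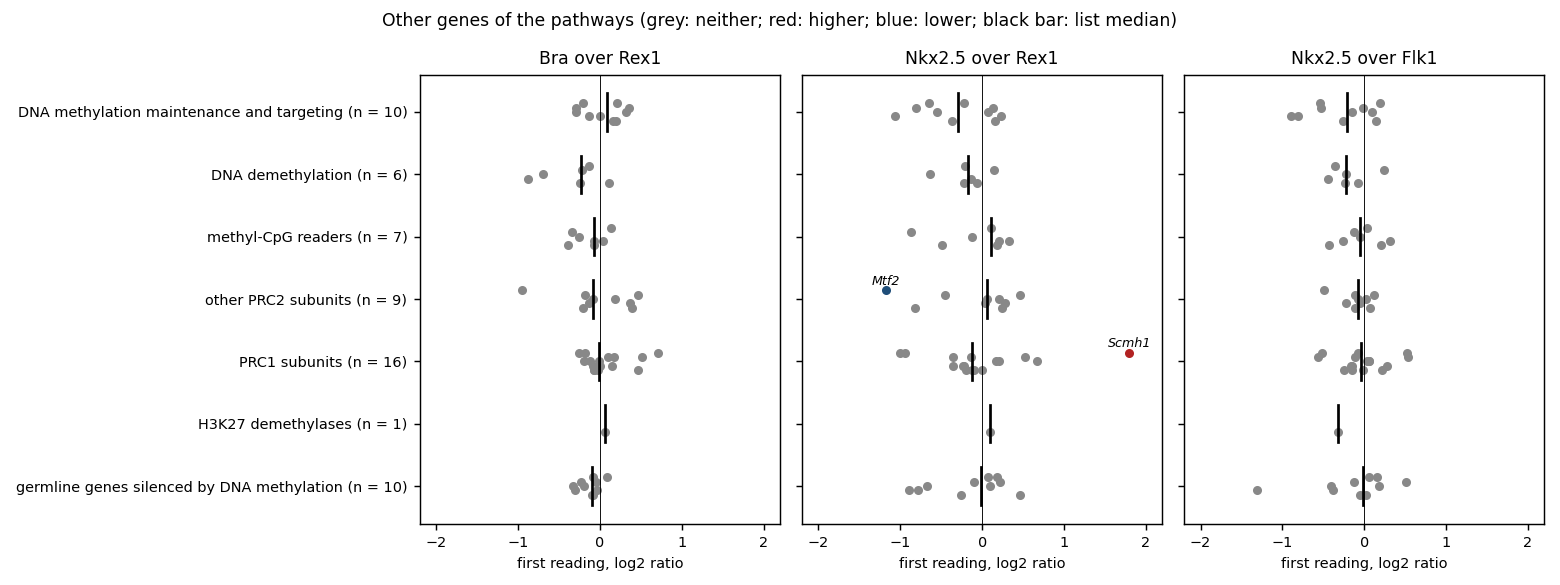
First reading in log2 ratio (x axis) of each gene of 7 pathway lists (rows) in 3 comparisons, 1 point per gene, with a bar at the list median. Mtf2 in blue passed as lower and Scmh1 in red as higher in Nkx2.5 over Rex1, although its bound of 1.46-fold is below 2-fold, and grey genes did not pass.

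The profile over the 5 direct ratios was compared with those of 11670 genes above background in both channels of all arrays. Nearest to Dnmt3b was Mixl1, a gene of the primitive streak, with a root mean square difference of 0.27. Next were Crym at 0.28 and Otx2, a gene of the epiblast and anterior embryo, at 0.29. Nearest to Dnmt3l were Ooep at 0.17, Zfp97 at 0.22 and Klf5, a transcription factor of embryonic stem cells, at 0.23. The 5 ratios share extracts and arrays, so these distances are descriptions.

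The markers that name the populations and the arrays bear on these values as follows. Zfp42, the gene of Rex1, read -1.68 and -2.25 in Nkx2.5 over Rex1, T read 1.07 and 0.73 in Bra over Rex1, Kdr 0.68 and 0.64 in Flk1 over Rex1, and Nkx2-5 0.53 and 0.91 in Nkx2.5 over Rex1, so only Zfp42 passed. Of 12 stem cell markers 5 were lower in Bra over Rex1, 5 in Flk1 over Rex1 and 6 in Nkx2.5 over Rex1. Their summed log2 level ran from 16.80 to 16.84 in Rex1 cells and was 15.92 in Bra cells. It ran from 15.80 to 15.87 in Flk1 cells and from 15.44 to 15.75 in Nkx2.5 cells. In Nkx2.5 over Rex1, 5 of 10 cardiac and 4 of 8 endoderm markers were higher. The endoderm sum ran from 15.93 to 16.05 in Nkx2.5 cells, with none of the 8 below background. In Rex1 cells this sum ran from 14.14 to 14.53, with Afp below background. Of 8 primitive streak markers 3 were higher in Bra over Rex1, 2 in Flk1 over Rex1 and 1 in Nkx2.5 over Rex1. Of the same 8, 3 were lower in Nkx2.5 over Bra and 1 in Nkx2.5 over Flk1. Their summed log2 level ran from 14.44 to 14.90 in Rex1 cells, with Sp5 and Rspo3 below background, from 16.01 to 16.12 in Bra cells, from 15.27 to 15.30 in Flk1 cells and from 14.57 to 15.18 in Nkx2.5 cells. Of 10 endothelial and blood markers 4 were higher in Flk1 over Rex1, with a sum of 15.71 to 15.94 in Flk1 cells and 14.87 to 15.06 in Rex1 cells, where Tal1 was below background. In Nkx2.5 over Flk1, where Dnmt3b passed, 1 of these 10 was higher and 1 lower, 4 of 10 cardiac and 2 of 8 endoderm markers were higher, and 1 of 12 stem cell markers was lower. None of 8 neural and none of 8 fibroblast feeder markers passed in any comparison. Of the feeder markers, Col1a2 was not above background in Rex1, Bra and Flk1 cells, nor Thy1 in Rex1 cells. Direct ratios of the feeder markers ran from -0.80 to 1.82 in Flk1 over Rex1. Those of 4 Col3a1 probes ran from -0.62 to 2.08 in Nkx2.5 over Flk1. Of 20 genes of S phase and mitosis 1 was lower, in Nkx2.5 over Rex1. The median Cy3 signal was 0.31 to 0.35 of its local background where Rex1 cells were hybridised and 0.99 and 0.61 on the other arrays. The part of these differences in the Dnmt and PRC2 ratios was not tested.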

How the data were processed

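Total RNA was column-purified, amplified with amino allyl bases and dye-coupled, per the labels' protocols. Per the file headers, the deposited intensity columns give each channel's median signal and its background. The files number the channels without naming dyes, and the first was taken as channel 1 of the labels. Tested on the files, the background is 1 value for each of 48 blocks of 625 spots and was already subtracted. The deposited ratio divides the channel intensities and reads 0 at Bad spots. The authors' value table holds, per probe, log2 values equal to that ratio in log2 minus 1 constant per array, with medians of -0.0833, -0.0584, -0.0559, -0.00762 and -0.0717 in array order over the probes matched here. Scanner software and genome build were not given in the sources used here.

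Foreground signals were rebuilt, corrected by normexp (offset 50) and loess-normalised within arrays in limma 3.58.1 under R 4.3.3, with control spots at weight 0. Levels used Aquantile as well. Later steps ran in Python 3.11.15. Above background means over percentile 95 of 96 negative control spots. The brightest probe stood for a gene. Names came from RefSeq (GRCm38.p6), with 8056 probes matched by accession, 5226 by symbol and 5089 by synonym. The 552 others kept the name in the files, and 9922 stayed unnamed. Least-squares fits leave little redundancy and give values, with no test. The members, lists and rules were chosen with earlier results of these data known. Named genes were the members with every probe, the markers that name the populations, list genes that passed and the 3 nearest profiles. Also named were the highest and lowest of each list in Nkx2.5 over Rex1 above background on at least 1 array of both populations. Uhrf1 and Hormad1 are not covered by this rule and were chosen once their values had been seen. The number of arrays limits the precision.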

Additional observations from a re-analysis of the deposited data

How the results depend on the processing

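Counts of the 7 genes past the rule changed under these settings. Without background subtraction they were 0 in Nkx2.5 over Rex1 and 0 in Nkx2.5 over Flk1, against 1 in each, and with plain subtracted signals 0 in Nkx2.5 over Flk1. With a size of 0.5 they were 2 in Bra over Rex1, 2 in Flk1 over Rex1, 3 in Nkx2.5 over Rex1, 1 in Nkx2.5 over Bra and 2 in Nkx2.5 over Flk1. The direct array alone gave 1 in Bra over Rex1 and 1 in Flk1 over Rex1, both Dnmt3l, beside 0.568% and 0.768% of all genes and transcripts called lower. Least squares over all 5 arrays, added after seeing the data, gave 1 in each of these, also Dnmt3l, beside 0.471% and 0.456%, and 1 in Nkx2.5 over Bra, Dnmt3b, beside 0.158%. No other planned setting changed a count. Of 210 direct ratios under other settings, 189 moved by less than the 1-array error, and of the other 21, 20 came without background subtraction and 1 with the deposited table. No called direct ratio changed sign. The cause of these changes was not tested. No paired analysis was possible because each pair of populations has 1 array. Dim Cy3 signals on the Rex1 arrays limit what can be measured there.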

Other observations

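A probe described in the files as a cDNA clone of embryonic ectoderm development carried no gene name and was not counted as Eed. It was above background in 3 of 10 channels, with direct ratios of 0.18, -0.10 and 0.63 in Bra, Flk1 and Nkx2.5 over Rex1.

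Ezh1, which can replace Ezh2 in PRC2, had 2 probes that disagreed. The brighter read -0.09 in Bra over Rex1, and the other 2.01, with a second reading of 1.07, so the dimmer probe passed there. It read 1.68 and 2.64 in Nkx2.5 over Rex1 and passed there too, but it was above background on 0 of the Rex1 arrays. Sycp3, a meiotic gene, read -1.31 and -0.68 in Nkx2.5 over Flk1, so only its direct ratio reached 1. Hells read -0.80 and -0.77 and Phc1, a PRC1 subunit, -0.94 and -0.89 in Nkx2.5 over Rex1. These 4 genes were named after their values were seen.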
